A study of Homo sapiens with 36 samples.

Results

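RBPMS, the gene that was knocked out, and its paralog RBPMS2 were read at transcript level in human embryonic stem cells and in the ribosomal fractions prepared from them. They were represented by 5 of the 223367 transcripts in the deposited table: 4 RBPMS isoforms (ENST00000339877.8, ENST00000397323.8, ENST00000287771.9 and ENST00000320203.8) and 1 RBPMS2 transcript (ENST00000300069.4). The 5 were taken by Ensembl ID. The table pairs no ID with a gene, and the assignment of these IDs to the 2 genes was given for this work. Any further RBPMS transcript in the annotation was not analysed here, so the sum of the 4 isoforms, called the RBPMS sum below, is not the whole output of the gene.

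All cells were of the established human embryonic stem cell line HUES6 and grew in FTDA, a defined medium for pluripotent cells. They were either unmodified (WT) or labelled as an RBPMS knockout (KO), and both genotypes received cycloheximide at 100 ng/ml for 5 min, which holds ribosomes on their mRNAs. Lysates of 3 WT and 3 KO cultures were sampled unfractionated (Input) and as the 40S, 80S, disome, Polysome1 and Polysome2 fractions of a polysome gradient, which gave 36 libraries in 12 groups of 3. Equal amounts of RNA entered the libraries, so a value is the place of a transcript in the make-up of a fraction and not the amount of RNA there. The labels do not say how the knockout was made, which exons it hit, or whether the KO cultures came from 1 clone or several. They name the Input of KO replicate 3 as Input2, without saying what sets it apart. Nothing says that the cultures of a genotype were independent isolates, so p-values measure only the spread between these samples.

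RBPMS (also named HERMES) is an RNA-binding protein with a single RNA recognition motif, which acts as a dimer and binds RNA that carries CAC motifs. It is known as a regulator of splicing in smooth muscle and as a marker of retinal ganglion cells. RBPMS2 is a close relative with the same kind of RNA-binding domain, known from smooth muscle and heart. A disrupted gene can still be transcribed. A knockout therefore need not remove its mRNA, and whether the RNA changes is a separate measurement from whether the protein is lost.

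The unit was TPM, the length-scaled share of a transcript in its library, which allows levels to be compared between transcripts. TPM keeps no record of how deeply a library was sequenced. The depth is therefore unknown, and a listed 0 is an estimate, not a count. Several libraries stood apart from the rest of their group. The WT 40S library of replicate 3 held 8956 transcripts at 1 TPM or more, against 14712 and 15949 in the other two. In KO disome replicate 1 only 10 transcripts took 70.5% of the TPM. Over the 51052 tested transcripts, KO Input replicates 1 and 2 correlated with the WT Input mean at 0.462 and 0.590, and KO Input replicate 3 at 0.911. In bulk RNA, fewer cells that express a gene and less RNA per cell cannot be told apart. Markers of the labelled cell type were not analysed here, because no table paired their transcripts with gene names.

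In WT cells RBPMS RNA was abundant and came mainly from ENST00000339877.8. In Input this isoform stood at 83.4, 90.2 and 80.9 TPM in replicates 1 to 3, and it made up 72.9% ± 3.19 of the RBPMS sum (SD, n = 3). ENST00000397323.8 followed at 26.2, 28.4 and 33.6 TPM, or 25.2% ± 3.03 of the sum (SD, n = 3). The other two were minor forms: ENST00000287771.9 was at 1.92, 2.02 and 2.002 TPM, and ENST00000320203.8 stayed at or below 0.454 TPM in all 18 WT libraries. RBPMS2 was at 47.7, 63.3 and 68.6 TPM in WT Input, below the RBPMS sum of the same library in each of the 3 cultures. The ranges of ENST00000339877.8, RBPMS2 and ENST00000397323.8 in WT Input did not overlap, so these levels had a fixed order over the 3 cultures.

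Along the WT gradient the RBPMS sum was highest in Polysome2, at 143 ± 16.2 TPM, followed by Input at 116 ± 4.47 TPM and Polysome1 at 70.4 ± 10.7 TPM (SD, n = 3 each). The 40S mean was 59.2 ± 47.6 TPM, the disome mean 46.6 ± 24.1 TPM and the 80S mean 45.0 ± 17.01 TPM (SD, n = 3 each). The Polysome2 values of 154, 151 and 124 TPM lay above all values of the other 5 fractions. Those of 80S, disome and 40S overlapped each other. The 40S mean joined 83.7 and 89.6 TPM in replicates 1 and 2 to 4.33 TPM in replicate 3, whose library stood apart as described above. The part of that library in the low mean was not tested.

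Between WT Polysome2 and WT Input the RBPMS sum differed by 0.29 on the log2(TPM + 1) scale (limma adjusted p = 0.9066, SE 0.78). Between WT 40S and WT Input it differed by -1.77 (limma adjusted p = 0.06771, SE 0.78), and this difference turned to 0.79 after median-of-ratios scaling of the libraries. Of 20 tests, of 4 member transcripts in 5 fractions against WT Input, 2 passed. Both concerned ENST00000397323.8, which fell by 2.39 in 40S (limma adjusted p = 0.0008357, SE 0.54) and by 1.56 in 80S (limma adjusted p = 0.03782, SE 0.54). In the same comparisons 42.5% and 19.4% of all tested transcripts were called lower, and 0.691% and 3.09% higher, so a fall in the light fractions was common among transcripts. Of the heavier fractions disome had 10.7% of all transcripts called lower and 4.05% higher, Polysome1 had 8.83% and 3.18%, and Polysome2 had 8.81% and 3.28%. The 40S difference of ENST00000397323.8 was gone after median-of-ratios scaling, at -0.0003 (limma adjusted p = 1), and was -0.58 after quantile normalization (limma adjusted p = 0.2211), and the 80S difference was 0.01 after scaling to the ERCC spike-ins. Without WT replicate 3 the counts fell from 2 to 0 of 20. The calls over all transcripts fell as well, to 12266 of 51052 lower and 126 higher in 40S, and 3921 and 406 in 80S. With all cultures they were 21694 and 353 in 40S, and 9879 and 1578 in 80S.

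RBPMS2 had a different profile over the WT gradient. It was highest in Input, at 59.9 ± 10.9 TPM, followed by 32.3 ± 9.59 in Polysome1, 24.1 ± 11.8 in Polysome2, 22.7 ± 15.1 in disome, 16.3 ± 5.96 in 80S and 12.3 ± 10.96 in 40S (SD, n = 3 each). All 3 Input values lay above all gradient values, and the 5 gradient fractions each overlapped with their neighbour in this order. Against WT Input it differed by -1.39 in Polysome2 (limma adjusted p = 0.5631, SE 1.25) and by -2.97 in 40S (limma adjusted p = 0.05454, SE 1.25). Neither difference passed the test. The 40S difference was -0.91 after median-of-ratios scaling, and the Polysome2 difference turned to 2.46 after ERCC scaling.

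The ratio of RBPMS2 to the RBPMS sum removes the scaling of a library, since both values come from it. In WT Input RBPMS2 stood at 0.427, 0.525 and 0.586 times the RBPMS sum. In WT Polysome2 it stood at 0.165, 0.0778 and 0.283 times the sum, lower than Input in 3 of 3 cultures and without overlap. On the log2(TPM + 1) scale the ratio was 1.68 lower on average in Polysome2 than in Input of the same culture, with values of -1.34, -2.66 and -1.03 for the 3 cultures. This comparison was chosen after the values were seen. Its exact paired permutation test gave p = 0.25 (two-sided, adjusted 0.417 over 5 fractions), and 0.25 is the smallest p that 3 pairs allow. In Polysome1 the same difference was -0.16 on average (SD 0.16), with 2 of 3 cultures lower.

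**Figure D1:**
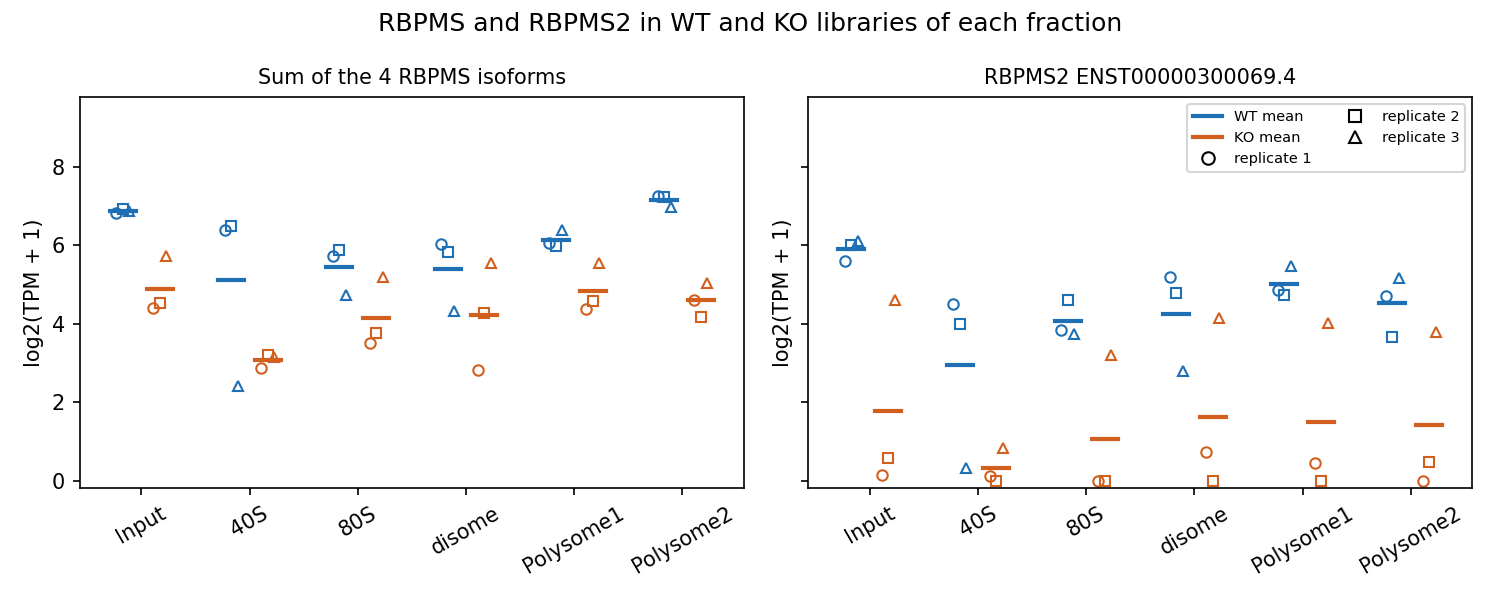
Levels of the RBPMS sum and of RBPMS2 as log2(TPM + 1) by fraction; symbols are single libraries (circle, square and triangle for replicates 1, 2 and 3) and bars are group means of 3. RBPMS2 is below 1 on this scale in every library of KO replicates 1 and 2 and is present in KO replicate 3, while the RBPMS sum stays above 2 on this scale in all 36 libraries.

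RBPMS RNA differed between the KO and WT libraries, and it was not absent from KO. Many other transcripts differed as well, and whether these differences came from the knockout was not tested. In the KO libraries the RBPMS sum ranged from 6.08 to 52.1 TPM with a median of 19.99, against 4.33 to 154 TPM with a median of 74.4 in WT. What changed most was the main isoform, ENST00000339877.8. In Input it stood at 0.276, 0.438 and 18.5 TPM in KO replicates 1 to 3, against 80.9 to 90.2 TPM in WT. In Polysome2, where WT had 126, 127 and 93.1 TPM, it was listed at 0 in KO replicates 1 and 2 and at 4.304 TPM in replicate 3. The 3 KO values lay below all WT values in both fractions.

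On the log2(TPM + 1) scale ENST00000339877.8 was lower in KO in 3 fractions that passed the test. The differences were -4.70 for Input (limma adjusted p = 0.007463, SE 1.23), -6.05 for Polysome2 (limma adjusted p = 0.005297, SE 1.23) and, closest to the threshold, -4.202 for Polysome1 (limma adjusted p = 0.04481, SE 1.23). In Polysome1 the KO values were 0.392, 0.448 and 8.63 TPM and the WT values 42.2, 46.5 and 57.9 TPM. These were 3 of the calls among 4 tested transcripts of both genes in each fraction. In Input 2 of the 4 were called lower and 0 higher, against 18% of all tested transcripts lower and 1.97% higher. In Polysome1 and in Polysome2 it was 1 of 4 lower and 0 higher, against 3.84% and 3.62% lower and 1.58% and 1.9% higher over all transcripts. The median log2 difference of the 4 was -2.41 in Input, -1.84 in Polysome1 and -1.87 in Polysome2, against -0.51, -0.32 and -0.22 over all transcripts, and 3 of the 4 are isoforms of 1 gene with shared reads.

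In the light fractions the same isoform was low as well, and no member passed the test. In 80S it was listed at 0, 0.176 and 14.3 TPM in KO against 42.2, 46.0 and 16.2 TPM in WT, a log2 difference of -3.64 (limma adjusted p = 0.1431, SE 1.23). In 40S it was listed at 0, 0.218 and 1.19 TPM in KO against 78.5, 78.8 and 1.28 TPM in WT, a log2 difference of -4.13 (limma adjusted p = 0.3541, SE 1.23). KO and WT did not overlap in either fraction, although WT and KO replicate 3 were nearly level in 40S. In disome KO had 3.15, 0.0885 and 20.6 TPM and WT 36.2, 40.1 and 6.34 TPM, which overlapped (log2 difference -2.28, SE 1.23, limma adjusted p = 0.2791). Of the 4 tested transcripts 0 were called in 40S, where limma called 0.00979% of all transcripts lower and 0.0137% higher. It was also 0 in 80S, against 0.537% lower and 0.0627% higher, and 0 in disome, against 2.74% lower and 0.0411% higher.

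ENST00000339877.8 thus had KO below WT without overlap in 5 of 6 fractions. The shares of all tested transcripts with such a separation were 29% for Input, 19.6% for Polysome1, 13.8% for Polysome2, 12.8% for 80S and 2.7% for 40S. The exact permutation test of each of these 5 differences gave p = 0.1 (two-sided, adjusted 0.191 over 42 tests), which is the smallest p that 3 against 3 can give.

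The calls of ENST00000339877.8 rested on KO replicates 1 and 2 together. Without KO replicate 1 the log2 differences of ENST00000339877.8 were -4.02 in Input and -5.65 in Polysome2 (limma adjusted p = 0.09945 and 0.06889). Without KO replicate 2 they were -4.10 and -5.65 (limma adjusted p = 0.08693 and 0.06481). With both left out, KO replicate 3 alone stood 2.14 lower than WT in Input and 4.44 lower in Polysome2 (limma adjusted p = 0.8337 and 0.2716), in a fit that takes the lone library to vary like the other groups. In the same fit it stood 1.10 lower in 80S and only 0.054 lower in disome, so in disome the low level rested on KO replicates 1 and 2 as well. Fitted on the libraries of its own fraction alone, neither call passed (limma adjusted p = 0.08907 for Input and 0.1042 for Polysome2). Almost no transcript did in such fits: limma called 5 of 51052 higher and 35 lower in Input, and 0 and 0 in Polysome2. The Polysome1 call was the least stable: it ended without WT replicate 1, 2 or 3 and without KO replicate 1 or 2 (limma adjusted p from 0.1025 to 0.2444), and under 7 other alternatives. With KO replicates 1 and 2 both left out it was -2.36 (limma adjusted p = 0.7367), and under the remaining 6 the limma adjusted p lay between 0.05126 and 0.12.

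Read per culture, as the mean over its 6 libraries, ENST00000339877.8 stood at 1.05%, 0.376% and 18.5% of the WT mean of 60.7 TPM in KO replicates 1, 2 and 3. The background of the cultures differs. Among 7785 transcripts with a WT mean of at least 10 TPM, 11.6% were at or below that share in KO replicate 1, 5.28% in replicate 2 and 1.37% in replicate 3. A near-complete absence was therefore shared with many other transcripts in KO replicates 1 and 2.

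ENST00000397323.8, the second isoform in WT, differed less between the genotypes in TPM than the main isoform did. In Input it stood at 14.8, 14.3 and 27.3 TPM in KO replicates 1 to 3 against 26.2 to 33.6 TPM in WT, and the groups overlapped. In Polysome2 it stood at 18.4, 11.2 and 21.3 TPM in KO against 26.2, 22.6 and 29.9 TPM in WT, without overlap. Of all tested transcripts 13.8% were separated in this direction in Polysome2 and 9.86% in the other. The log2 differences of the isoform ran from -1.05 in disome to -0.16 in Polysome1 and passed the test in 0 of 6 fractions (SE 0.54 each, limma adjusted p from 0.2575 to 1). An SE of this size does not show the levels to be equal. After scaling to the ERCC spike-ins the isoform was far lower in KO and passed in all fractions but 40S. The log2 differences ran from -5.70 in Polysome2 (limma adjusted p = 2.277e-05) to -2.86 in 80S (limma adjusted p = 0.04246). With this scaling limma called 38857 of 51052 transcripts lower in Polysome2 and 152 higher, 12194 and 47 in 80S, and 0 and 0 in 40S. For this isoform, KO replicate 3 had 100.0% of the WT mean over its 6 libraries, and KO replicates 1 and 2 had 58.4% and 51.7%. Of the 7785 transcripts with a WT mean of at least 10 TPM, 52.7%, 71.1% and 54.2% were at or below these shares in the same order.

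ENST00000287771.9, a minor isoform in WT, had higher TPM in KO. In Input it stood at 4.87, 7.41 and 6.25 TPM in KO against 1.92, 2.02 and 2.002 TPM in WT. In Polysome2 it stood at 4.76, 5.56 and 6.04 TPM in KO against 1.32, 1.15 and 1.18 TPM in WT. KO lay above WT without overlap in 5 of 6 fractions, all but disome, where KO replicate 1 had 0.657 TPM and replicates 2 and 3 had 7.70 and 8.75 TPM. Over all tested transcripts KO lay above WT without overlap for 9.86% in Polysome2, 9.17% in Polysome1, 8.99% in 40S, 7.09% in 80S and 6.13% in Input.

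None of these differences of ENST00000287771.9 passed the test over all 36 libraries. The nearest was Polysome1, with a log2 difference of 1.69 (limma adjusted p = 0.05572, SE 0.53), and Polysome2 had 1.54 (limma adjusted p = 0.07688, SE 0.53). With the replicate number as a block these 2 passed (limma adjusted p = 0.03373 and 0.04916), although replicate numbers did not pair the samples. That fit called 1675 of 51052 transcripts higher and 3995 lower in Polysome1, and 1789 and 3511 in Polysome2. Without KO replicate 1 all fractions but 40S passed (limma adjusted p from 0.001696 to 0.01802), and the disome difference went from 1.16 to 1.98. In that setting limma called 503 of 51052 transcripts higher and 3358 lower in Input. It called 20 and 33 in 80S, 23 and 53 in disome, 72 and 94 in Polysome1, and 204 and 210 in Polysome2. The ERCC spike-ins took 2.55 to 876 TPM of the WT libraries and 43.3 to 3589 TPM of the KO libraries. After scaling to them the direction turned in Input, 40S, disome, Polysome1 and Polysome2, to between -0.21 and -2.54. The Polysome2 value of -2.54 passed in that opposite direction (limma adjusted p = 0.008577). It was smaller in size than the median over all transcripts there, -3.40, where limma called 38857 of 51052 lower and 152 higher. After median-of-ratios and quantile scaling the difference of ENST00000287771.9 stayed positive in the 6 fractions, and the test was passed in 4 and 5 of them.

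**Figure D2:**
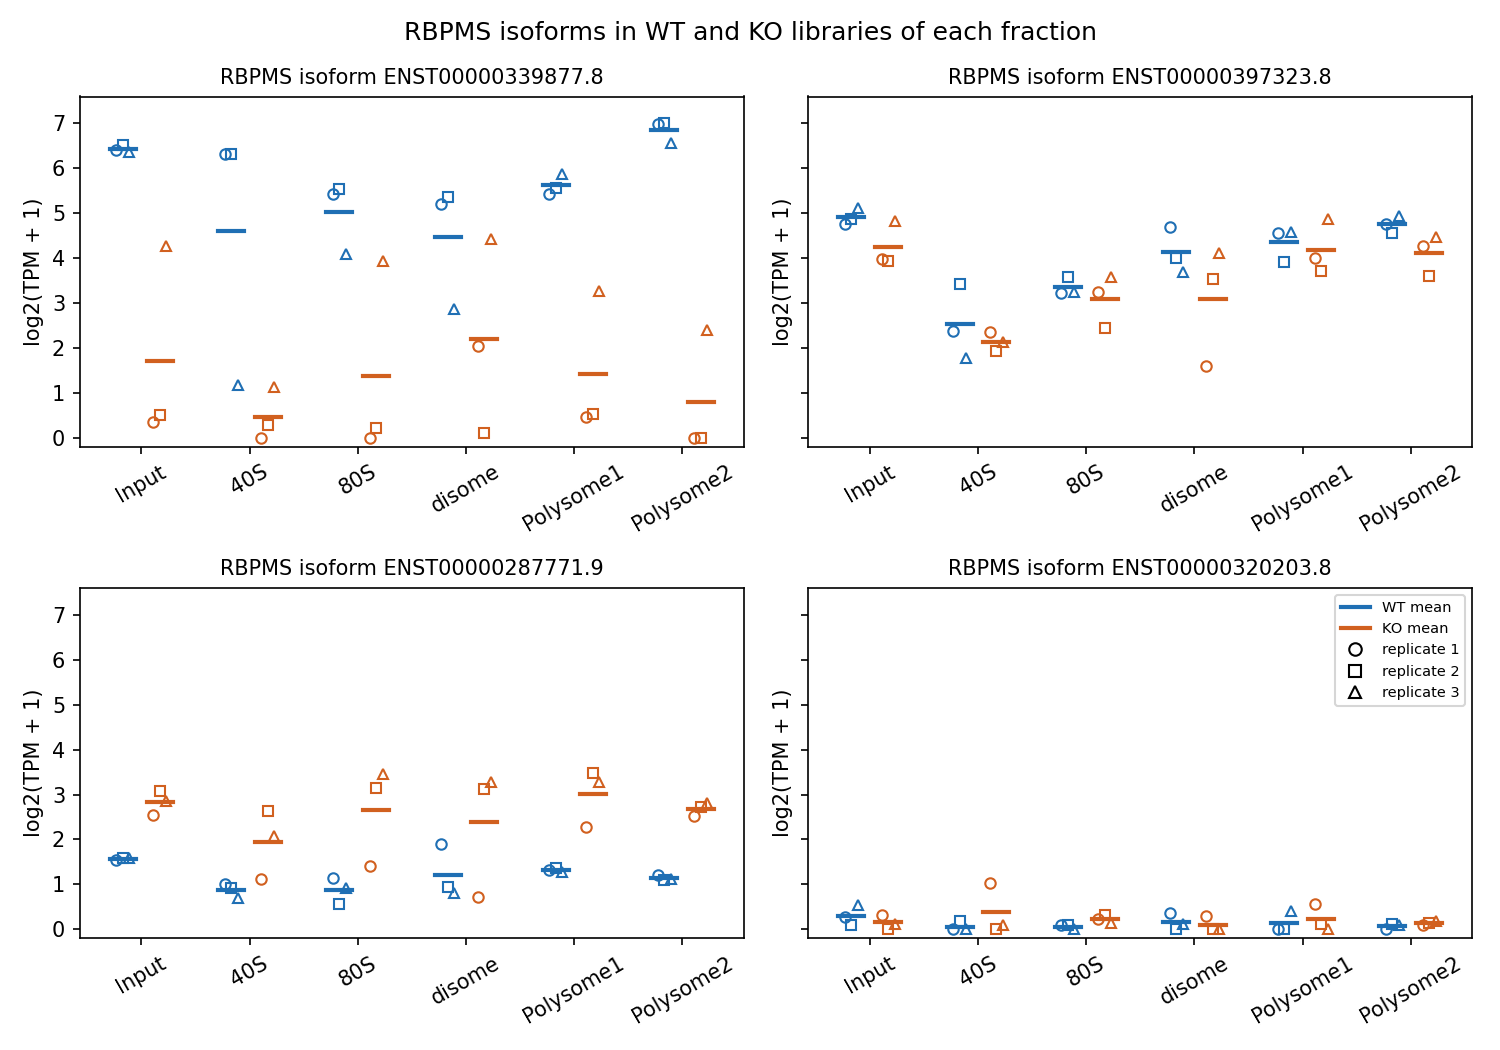
Levels of the 4 RBPMS isoforms as log2(TPM + 1) by fraction; symbols are single libraries and bars are group means of 3. ENST00000339877.8 is lower in KO than in WT without overlap in 5 of 6 fractions, ENST00000287771.9 lies above WT in TPM in 5 of 6 (a direction that turns in 5 fractions after ERCC scaling), and ENST00000320203.8 stays near 0 in both genotypes.

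Shares of the RBPMS sum do not depend on the scaling of a library and show the change in make-up directly. In Polysome2 ENST00000339877.8 made up 82.1%, 84.2% and 75.0% of the sum in WT, and 0%, 0% and 13.5% in KO. ENST00000397323.8 took 18.7% ± 4.74 in WT and 70.9% ± 7.17 in KO (SD, n = 3 each). ENST00000287771.9 took 0.858% ± 0.0953 in WT and 24.1% ± 7.65 in KO (SD, n = 3 each). All 3 shares separated the genotypes in this fraction.

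In Input the same 3 shares separated the genotypes too. ENST00000339877.8 made up 1.36%, 1.98% and 35.4% of the sum in KO replicates 1 to 3, against 69.2% to 74.8% in WT. ENST00000397323.8 took 73.3%, 64.5% and 52.4%, and ENST00000287771.9 took 24.1%, 33.5% and 11.98%. The share of ENST00000287771.9 was higher in KO than in WT without overlap in 6 of 6 fractions, and that of ENST00000339877.8 lower in 5 of 6. In disome the latter took 51.9% in KO replicate 1, the library with most of its TPM in 10 transcripts, and 33.1% in WT replicate 3. Each separated share had an exact permutation p of 0.1 (two-sided, adjusted 0.15 over 24 tests), the smallest possible with 3 against 3. Shares of 1 gene sum to the whole, so a fall of the main isoform raises the shares of the others.

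**Figure D3:**
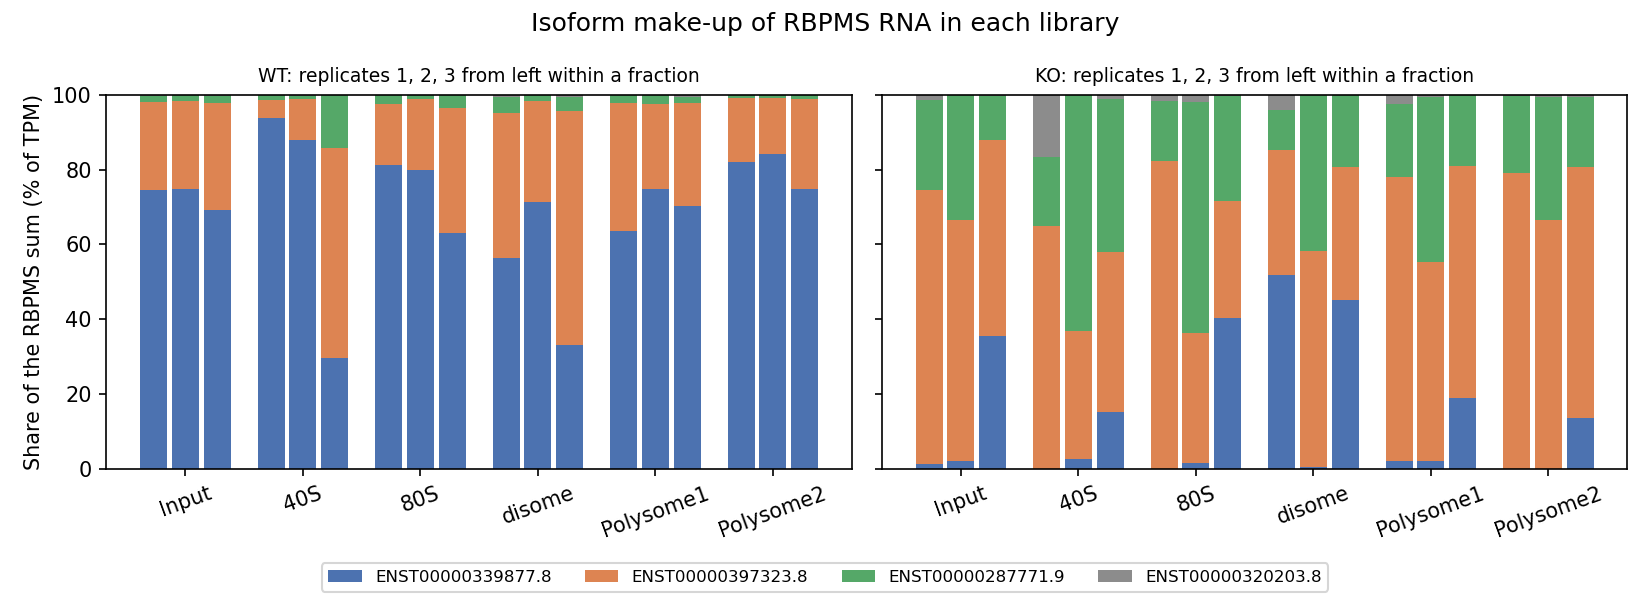
Share of each isoform in the RBPMS sum, in percent of TPM, with 1 bar per library and replicates 1, 2 and 3 from left within a fraction. ENST00000339877.8 fills most of the WT bars and little of those of KO replicates 1 and 2 outside disome, while ENST00000287771.9 takes from 10.8% to 63.1% in KO.

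ENST00000320203.8 was close to the limit of detection everywhere. It reached 1 TPM in 1 of 36 libraries, KO 40S replicate 1 with 1.05 TPM, and was therefore not among the tested transcripts. It was listed at 0 in 7 of 18 WT libraries and 5 of 18 KO libraries. KO and WT differed without overlap only in 80S, with 0.175, 0.247 and 0.0984 TPM in KO against at most 0.0668 TPM in WT, levels too low to be read as a change.

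For the RBPMS sum these isoform values combined to a lower level in KO. In Input it was 20.2, 22.1 and 52.1 TPM in KO against 112, 121 and 117 TPM in WT, a log2 difference of -1.98 (limma adjusted p = 0.07048, SE 0.78). In Polysome2 it was 23.3, 16.9 and 31.8 TPM in KO against 124 to 154 TPM in WT, and it fell by 2.56 (limma adjusted p = 0.04946, SE 0.78). KO lay below WT without overlap in Input, Polysome1 and Polysome2, and the groups overlapped in 40S, 80S and disome. Of all tested transcripts 29%, 19.6% and 13.8% were separated in this direction in those 3 fractions, and 6.13%, 9.17% and 9.86% in the other. The Polysome2 call sat at the threshold. It ended without WT replicate 1, WT replicate 2, KO replicate 1 or KO replicate 2 in turn, with limma adjusted p from 0.154 to 0.2934 and log2 differences from -2.56 to -2.34. Over the 6 libraries of a culture, the RBPMS sum had 17.9%, 21.1% and 45.5% of the WT mean in KO replicates 1 to 3. Of the 7785 transcripts with a WT mean of at least 10 TPM, 43.5%, 31.7% and 4.41% were at or below these shares.

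In the other 4 fractions the log2 differences of the RBPMS sum lay between -2.03, in 40S, and -1.18, in disome (SE 0.78 each), and 0 of 4 passed (limma adjusted p from 0.2617 to 0.6147). In disome the direction rested on KO replicates 1 and 2: KO replicate 3 alone, at 45.6 TPM, stood 0.14 above the WT mean on the log2 scale. With the 6 fractions of a culture averaged, which counts 6 cultures and not 36 libraries, the RBPMS sum differed by -1.73 (limma adjusted p = 0.145, SE 0.60) and ENST00000339877.8 by -4.17 (limma adjusted p = 0.1382, SE 0.86). That comparison called 0 of 51052 transcripts with limma, with 14591 at an unadjusted p under 0.05. The exact permutation p was 0.1 for both (two-sided, adjusted 0.191), the smallest possible, with KO below WT in all 3 cultures. Of all tested transcripts, 21.4% had culture means in KO below WT without overlap and 7.98% above.

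**Figure D4:**
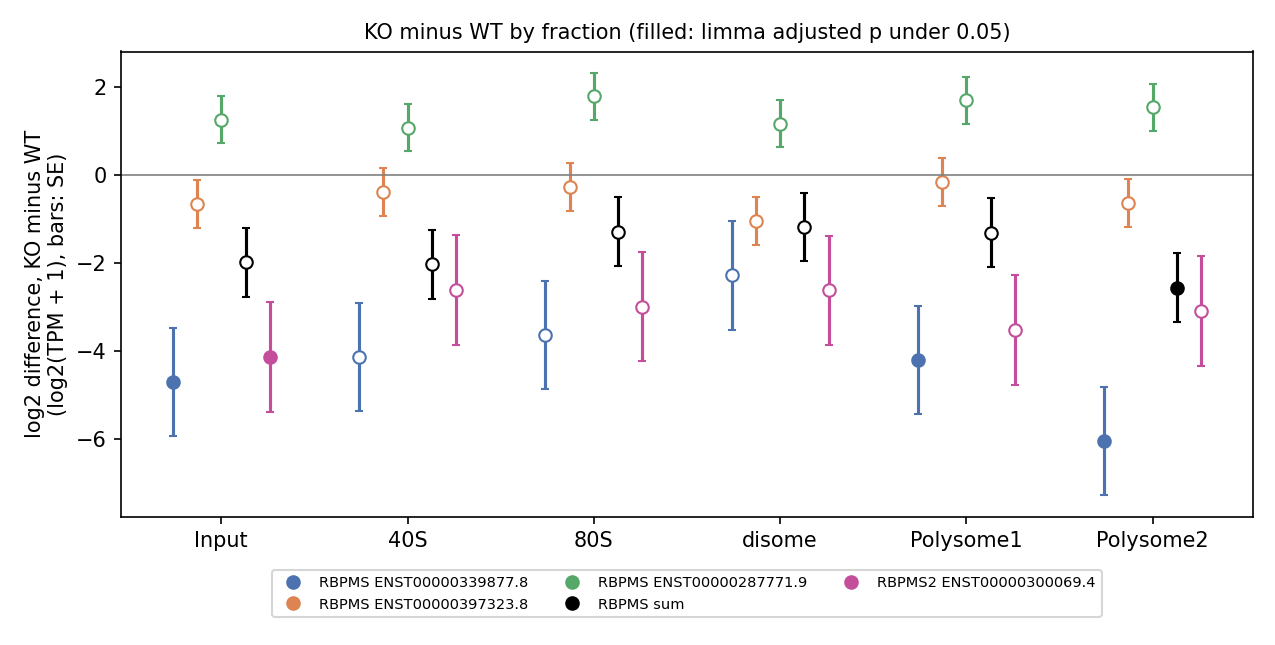
Log2 difference, KO minus WT, of 4 tested transcripts and the RBPMS sum in each fraction on the log2(TPM + 1) scale; points are estimates from the model over 36 libraries, bars are SE, and filled points passed the test. ENST00000339877.8 passed in Input, Polysome1 and Polysome2, RBPMS2 in Input and the RBPMS sum in Polysome2; the positive values of ENST00000287771.9 turn negative in 5 fractions after ERCC scaling.

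RBPMS2 was not the labelled target, and its RNA was lower in KO as well. In Input it stood at 0.0938, 0.487 and 23.3 TPM in KO replicates 1 to 3 against 47.7, 63.3 and 68.6 TPM in WT. It fell by 4.14 on the log2(TPM + 1) scale (limma adjusted p = 0.0188, SE 1.25), with KO below WT without overlap. It was below 1 TPM in all 12 libraries of KO replicates 1 and 2, and listed at 0 in 2 of 6 and 4 of 6 of them. In KO replicate 3 it reached 0.793 TPM in 40S and from 8.27 to 23.3 TPM in the other fractions.

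In the gradient fractions RBPMS2 had log2 differences between -2.62 and -3.53 (SE 1.25 each), and none passed (limma adjusted p from 0.07754 to 0.8459). In Polysome1 it was at 0.371, 0 and 15.3 TPM in KO against 28.1, 25.6 and 43.3 TPM in WT. With the replicate number as a block this difference of -3.53 passed (limma adjusted p = 0.04909), although replicate numbers did not pair the samples. That fit called 3995 of 51052 transcripts lower and 1675 higher in Polysome1. In Polysome2 KO had 0, 0.393 and 12.8 TPM and WT 25.3, 11.7 and 35.2 TPM, so KO replicate 3 lay within the WT range. KO and WT were separated in Input, 80S and Polysome1 and overlapped in 40S, disome and Polysome2. Over all tested transcripts KO lay below WT without overlap for 29%, 12.8% and 19.6% in Input, 80S and Polysome1. It lay above for 6.13%, 7.09% and 9.17%.

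The RBPMS2 call in Input rested on the cultures included. Leaving out any single culture other than KO replicate 3 ended it, with limma adjusted p from 0.06006 to 0.172 and log2 differences from -4.30 to -3.32. With KO replicates 1 and 2 left out together it was -1.31 (limma adjusted p = 0.9524). Averaged over the 6 fractions of each culture RBPMS2 differed by -3.17 (limma adjusted p = 0.1382, SE 0.86). KO lay below WT in all 3 cultures, a separation that 21.4% of all tested transcripts had, with 7.98% the other way. For RBPMS2 the KO cultures had 0.719%, 0.526% and 46.1% of the WT mean of 27.9 TPM. Of the 7785 transcripts with a WT mean of at least 10 TPM, 10.1%, 5.74% and 4.53% were at or below these shares in KO replicates 1, 2 and 3.

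Relative to WT, RBPMS2 was lower in KO than the RBPMS sum was in 2 of the 3 KO cultures. This did not extend to the main isoform. Over the 6 libraries of a culture, RBPMS2 had 0.719%, 0.526% and 46.1% of its WT mean in KO replicates 1 to 3. ENST00000339877.8 had 1.05%, 0.376% and 18.5%, so RBPMS2 was the lower only in KO replicate 1. In Input the ratio of RBPMS2 to the RBPMS sum was 0.00463, 0.0220 and 0.446 in KO replicates 1 to 3 against 0.427 to 0.586 in WT. The first 2 lay far below the WT range and the third within it. In Polysome2 the ratio was 0, 0.0233 and 0.403 in KO against 0.0778 to 0.283 in WT, so here KO replicate 3 lay above WT. RBPMS2 stood below the RBPMS sum in all 36 libraries.

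**Figure D5:**
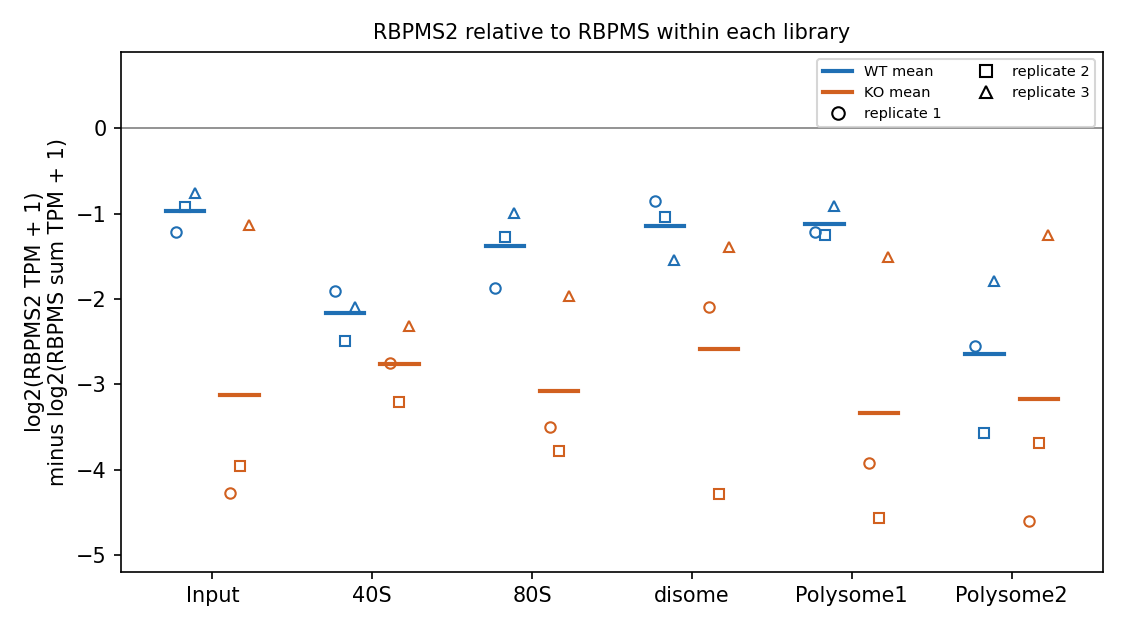
RBPMS2 relative to RBPMS within each library, as log2(RBPMS2 TPM + 1) minus log2(RBPMS sum TPM + 1); symbols are single libraries and bars are group means of 3. In WT the value is lower in Polysome2 than in Input in all 3 cultures, and KO replicate 3 lies apart from KO replicates 1 and 2 in Input, Polysome1 and Polysome2.

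Whether the knockout moved RBPMS or RBPMS2 RNA along the gradient was read as a shift, the KO minus WT difference of a fraction minus that of Input. Of 20 tests of 4 transcripts in 5 fractions, 0 passed with limma (lowest adjusted p = 0.5912). Over all tested transcripts the shares called positive were 5.08% for 40S, 3.7% for 80S, 3.09% for disome, 2.57% for Polysome1 and 2.2% for Polysome2. The shares called negative were 0.094%, 0.178%, 0.509%, 0.112% and 0.106% in the same order. The largest shift by size was 2.42 for ENST00000339877.8 in disome (limma adjusted p = 0.5912, SE 1.74), and for the RBPMS sum the shift in Polysome2 was -0.58 (limma adjusted p = 0.9465, SE 1.10). With SEs of 1.76 for RBPMS2, differences of several log2 units were not detectable in these libraries. RBPMS2 was also below 1 TPM in 6 of 6 libraries of both KO replicates 1 and 2, and ENST00000339877.8 in 5 and 6 of 6. So near 0 in Input and fractions alike, these cultures could show little movement, and the shift largely carries the WT difference with its sign turned. For these transcripts the shift therefore cannot decide whether the knockout moved the RNA.

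Within the KO gradient, 0 of the 20 tests against KO Input passed with limma (lowest adjusted p = 0.05847, for ENST00000397323.8 in 40S). That transcript stood at 4.10, 2.81 and 3.42 TPM in KO 40S against 14.8, 14.3 and 27.3 TPM in KO Input, a log2 difference of -2.11 (SE 0.54), beside -2.39 in WT. In the same comparison 0.678% of all tested transcripts were called lower and 0.00392% higher. The shares for the other fractions were also small: 0.627% higher and 0.0333% lower for Polysome2, 0.00784% and 0.00392% for Polysome1, 0% and 0.00196% for disome, and 0% and 0% for 80S. With the replicate number as a block, 1 of the 20 passed (lowest limma adjusted p = 0.04592), although replicate numbers did not pair the samples. That fit called 640 of 51052 transcripts lower and 4 higher in 40S.

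The transcripts with the most similar pattern were sought over the 36 libraries by Pearson's r of log2(TPM + 1), as a description, since libraries share cultures and fractions. The closest to the RBPMS sum were ENST00000252725.10 (r = 0.918) and ENST00000428304.6 (r = 0.906), and 4 transcripts reached 0.9. The closest to RBPMS2 were ENST00000591743.1 (r = 0.977) and ENST00000401869.5 (r = 0.974), and 845 transcripts reached 0.9. The RBPMS2 pattern, near 0 in KO replicates 1 and 2 and present in KO replicate 3 and WT, was thus shared with many transcripts. Few followed the RBPMS sum, which joins isoforms of unlike pattern. Its main isoform in WT, ENST00000339877.8, at 0.276, 0.438 and 18.5 TPM in KO Input, was not compared in this way.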

How the data were processed

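RNA of 36 libraries (stranded poly(A) kit, paired 75 nt reads, per the labels' protocols) was quantified by the authors as TPM. The submitters' processing notes name kallisto, sleuth and build hg19. Versions, and whether strand was used in counting, are not given in the sources used here. No coordinates are printed, because the gene table given is of another build. That table held 59792 genes and 0 Ensembl IDs, so lists of other genes were not analysed here. It lists an antisense RNA (RBPMS-AS1) and pseudogenes (RBPMS2P1, RBPMSLP), and isoforms share sequence, so estimates can be split between them. The 92 ERCC rows were left out, and the tests covered the 51052 transcripts that reached 1 TPM in 3 or more libraries, among them 4 of the 5 members. The RBPMS sum was fitted as an added row. limma 3.58.1 (R 4.3.3, variance trend) was fitted to log2(TPM + 1) with 12 group means and 24 residual degrees of freedom, and p-values were adjusted by Benjamini-Hochberg within each comparison at 0.05. The fit takes libraries of 1 culture as independent. A log2 difference on this scale understates changes of low transcripts. The fit was tested on simulated data. Exact permutation tests used scipy 1.17.1. Named were the members and, by r, the 2 transcripts most like the RBPMS sum and the 2 most like RBPMS2. Members, lists and alternatives were chosen with earlier results of these data known.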

Additional observations from a re-analysis of the deposited data

How the results depend on the processing

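Only 6 cultures stand behind the 36 libraries, depth is unknown, and the isoform values are estimates from shared reads. Over all alternatives, differences of the RBPMS sum and RBPMS2 and the counts of members called stayed the same 254 times. They gained a call 31 times, lost one 16 times, moved 14 times and reversed 4 times. For RBPMS isoforms, their shares and RBPMS2 relative to the RBPMS sum these counts were 478, 38, 29, 3 and 13. A difference stayed the same if it kept direction and side of the threshold. Other values had no threshold: a count stayed the same if equal or similar, and a share or relative level if it changed by no more than its SD. KO replicates 1 and 2 were left out together because earlier results of these data placed them apart. The median over all transcripts of the KO minus WT difference in Input moved from -0.51 to -0.21 with median-of-ratios scaling, 0.00 with quantile normalization and -1.37 with ERCC scaling, and in Polysome2 from -0.22 to -3.40 with ERCC scaling. The causes of the changes below were not tested.

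ERCC scaling, which rests on spike-ins of unequal share, gave KO minus WT differences of RBPMS2 of -4.81 in 80S, -6.82 in Polysome1, -6.91 in Polysome2, -4.60 in disome and -4.94 over cultures, each past the threshold. For the RBPMS sum it gave -4.66 in Input, -4.03 in 80S, -5.49 in Polysome1, -7.73 in Polysome2, -3.51 in disome and -4.76 over cultures. For ENST00000339877.8 it gave -5.63 in Input, -7.63 in Polysome1 and -9.82 in Polysome2, all still past the threshold, and brought -5.52 in 80S, -4.16 in disome and -5.95 over cultures past it. For ENST00000397323.8 it gave -3.22 in Input, -2.86 in 80S, -3.38 in disome, -4.25 in Polysome1, -5.70 in Polysome2 and -3.42 over cultures, each past the threshold. For ENST00000287771.9 it turned the direction, to -0.82 in Input, -0.21 in 40S, -0.64 in disome, -1.70 in Polysome1, -2.54 in Polysome2 and -0.98 over cultures. Against WT Input it gave -4.58 for RBPMS2 and -3.56 for the RBPMS sum in 40S, 2.46 and 4.19 in Polysome2, and 0.012 for ENST00000397323.8 in 80S. Between genotypes limma called, after ERCC scaling, 42987 of 51052 transcripts lower over cultures and 211 higher. In Input it called 6917 lower and 11 higher. In 80S, disome, Polysome1 and Polysome2 it called 12194, 27194, 38888 and 38857 lower, and 47, 108, 243 and 152 higher. Median-of-ratios scaling brought the 40S difference of the RBPMS sum to -2.79 between genotypes and to 0.79 against WT Input. Quantile normalization gave the RBPMS sum -2.41 in 40S and -1.61 in Input between genotypes and -0.12 in WT Polysome2 against Input, and ENST00000397323.8 0.023 in Polysome1.

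A pseudocount of 0.1 TPM ended the calls of RBPMS2 in Input (-5.42, limma adjusted p = 0.07146) and of the RBPMS sum in Polysome2 (-2.61, limma adjusted p = 0.07965). So did fitting the fraction's libraries alone (-4.14, limma adjusted p = 0.1228, and -2.56, limma adjusted p = 0.1042), and, for the RBPMS sum, no filter (-2.56, limma adjusted p = 0.1152). On the fraction's libraries alone limma called 35 of 51052 transcripts lower and 5 higher in Input, and 0 and 0 in Polysome2. With the smaller pseudocount it called 5529 and 1050 in Input, and 694 and 467 in Polysome2. With no filter it called 1192 of 175737 lower and 496 higher in Polysome2.

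Replicate numbers did not pair the samples: same-numbered WT and KO libraries had correlated deviations of -0.709 to 0.107. With the replicate block RBPMS2 passed in Polysome1 (-3.53, limma adjusted p = 0.04909) and in WT 40S against Input (-2.97, limma adjusted p = 0.03858). Culture as a random block gave the same -3.53 and -2.97 with limma adjusted p of 0.03302 and 0.004604, and called the RBPMS sum in WT 40S against Input (-1.77, limma adjusted p = 0.01695). Between genotypes in Polysome1 limma called 3995 of 51052 transcripts lower and 1675 higher with the replicate block, and 4234 and 1570 with the random block. In WT 40S against Input it called 22912 and 425, and 26810 and 701.

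With single cultures left out, KO minus WT differences of RBPMS2 ranged from -5.56 to -3.32 in Input, -4.06 to -2.46 in 80S, -3.89 to -1.81 in disome, -4.79 to -2.78 in Polysome1, -4.28 to -2.39 in Polysome2 and -4.25 to -2.61 over cultures. Those of the RBPMS sum ranged from -2.41 to -1.74 in Input, -2.78 to -2.34 in Polysome2 and -2.10 to -1.46 over cultures. The lowest of each of these 9 ranges is without KO replicate 3, and all 9 passed there. In that setting limma called 24140 of 51052 transcripts lower over cultures and 5888 higher. In Input it called 19382 lower and 3608 higher, and in 80S 8582 and 3118. In disome, Polysome1 and Polysome2 it called 14417, 13957 and 12922 lower, and 965, 4655 and 4593 higher. Against WT Input in 40S, RBPMS2 ranged from -3.90 to -1.55 and the RBPMS sum from -2.45 to -0.42. ENST00000397323.8 ranged from -0.76 to 0.062 in 40S, -0.52 to 0.053 in 80S and -0.49 to 0.082 in Polysome1 between genotypes.

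With KO replicates 1 and 2 left out together, RBPMS2 was at -1.31 in Input, the RBPMS sum at -2.13 in Polysome2 and 0.14 in disome, and ENST00000397323.8 at 0.22 in 80S and 0.52 in Polysome1. RBPMS2 in WT 40S against Input, at -2.97, then passed (limma adjusted p = 0.00939). Of the 20 tests against WT Input, 2 had passed. It was 1 with the smaller pseudocount, 0 with median-of-ratios scaling, 8 with ERCC scaling, and 0 to 3 with single cultures left out. The calls over all transcripts moved too. After ERCC scaling limma called 32209 of 51052 higher and 626 lower in Polysome2, 30758 and 782 in Polysome1, and 15 and 14723 in 40S. In 40S it called 5413 higher and 10584 lower with median-of-ratios scaling, and 564 and 21318 with the smaller pseudocount. Against KO Input 0 of the 20 tests had passed. There it was 1 with the smaller pseudocount, with a filter of 10 TPM and with either block, and 0 to 1 with single cultures left out. Over all transcripts in 40S, limma called 1332 of 51052 lower and 5 higher with that pseudocount, and 628 of 14905 and 1 with that filter. It called 640 and 4 of 51052 with the replicate block, and 3375 and 61 with culture as a random block.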
